A study of Rattus norvegicus with 22 samples.

Results

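miR-143 and miR-145 are microRNAs (miRNAs), short RNAs that pair with messenger RNAs and lower their output, made from neighbouring hairpins. They were taken here as every name in the deposited tables that carries either number, on either arm of its hairpin. This gave 3 of 468 names, rno-miR-143-3p (miR-143-3p from here on), miR-145-5p and miR-145-3p. miR-143-5p was not analysed here. The values came from small RNA libraries of the CA1 region of the hippocampus. The animals were Long Evans rats, all males aged 14 weeks. The CPF group (11 libraries) had been injected under the skin with chlorpyrifos (CPF), an organophosphate insecticide that blocks acetylcholinesterase, at 10 mg/kg body weight each day for 21 days. The control group (11 libraries) had received the peanut oil vehicle over the same 21 days. Some animals of the study went through fear conditioning and others did not, and the labels do not assign the libraries to either. They give no animal identifiers, so a p-value here covers only the spread between libraries.

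In mammals both hairpins are cut from a shared primary transcript, whose RefSeq host gene in the rat is the long noncoding RNA Carmn, also called Mir143hg. The pair is known from vascular smooth muscle, where serum response factor and its partner myocardin drive it and where it helps to hold cells in the contractile state. miR-145 is known to target Klf4, a transcription factor of the synthetic state, and miR-143 to target Elk1, a factor of growth signalling. In brain tissue these miRNAs are generally regarded as products of the vessel wall.

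The mature sequences below, from RefSeq (build GRCr8), are shown because the members differ in seed, the stretch that sets which messenger RNAs are paired. Capitals mark the seed, bases 2 to 8 counted from the 5′ end.
miR-143-3p: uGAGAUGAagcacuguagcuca
miR-145-5p: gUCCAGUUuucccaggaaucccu
miR-145-3p: gGAUUCCUggaaauacuguuc
None of these 3 seeds occurred in another of the 693 mature rat miRNAs of that table. The hairpins are shown because the results turn on which arm was read, with both annotated arms in capitals.
Mir143: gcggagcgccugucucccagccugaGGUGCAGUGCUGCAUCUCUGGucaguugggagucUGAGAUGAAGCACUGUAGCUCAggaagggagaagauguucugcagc
Mir145: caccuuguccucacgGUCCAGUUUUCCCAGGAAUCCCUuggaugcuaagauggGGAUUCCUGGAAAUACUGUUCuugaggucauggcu
In Mir143 the abundant 3p arm lies at bases 60 to 81, and the 5p arm at bases 26 to 46. In Mir145 the 5p arm lies at bases 16 to 38 and the 3p arm at bases 54 to 74.

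Levels are in RPM, miRNA reads scaled by the authors to a library total of 1000000, as deposited. The libraries held 47844 to 94981 reads, recovered from the steps between low RPM values, so a read was worth 10.5 to 20.9 RPM. The floor used here, 3 reads, was 31.6 to 62.7 RPM. CPF replicates 7, 8 and 9 stood apart by high choroid plexus miRNAs. Where both were run, results that rest on them are given with and without them.

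miR-143-3p was the most abundant name in all 22 libraries. It took 26.8 ± 2.62% of RPM in CPF libraries and 26.0 ± 1.75% in control libraries (SD, n = 11 each). In RPM the CPF libraries ran from 218751 in replicate 1 to 311596 in replicate 9, with a median of 258505. The control libraries ran from 219900 in replicate 7 to 281413 in replicate 5, with a median of 259396. The groups overlapped, and the CPF libraries reached further at both ends. 4 of 11 CPF libraries lay above the highest control library, 1 lay below the lowest, and 5 lay above the control median. In bulk tissue such as this, fewer cells of a type and less RNA per cell cannot be told apart. The library with the highest level, CPF replicate 9, was also the one with the fewest reads (47844), and the lowest, CPF replicate 1, had the most (94981).

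**Figure D1:**
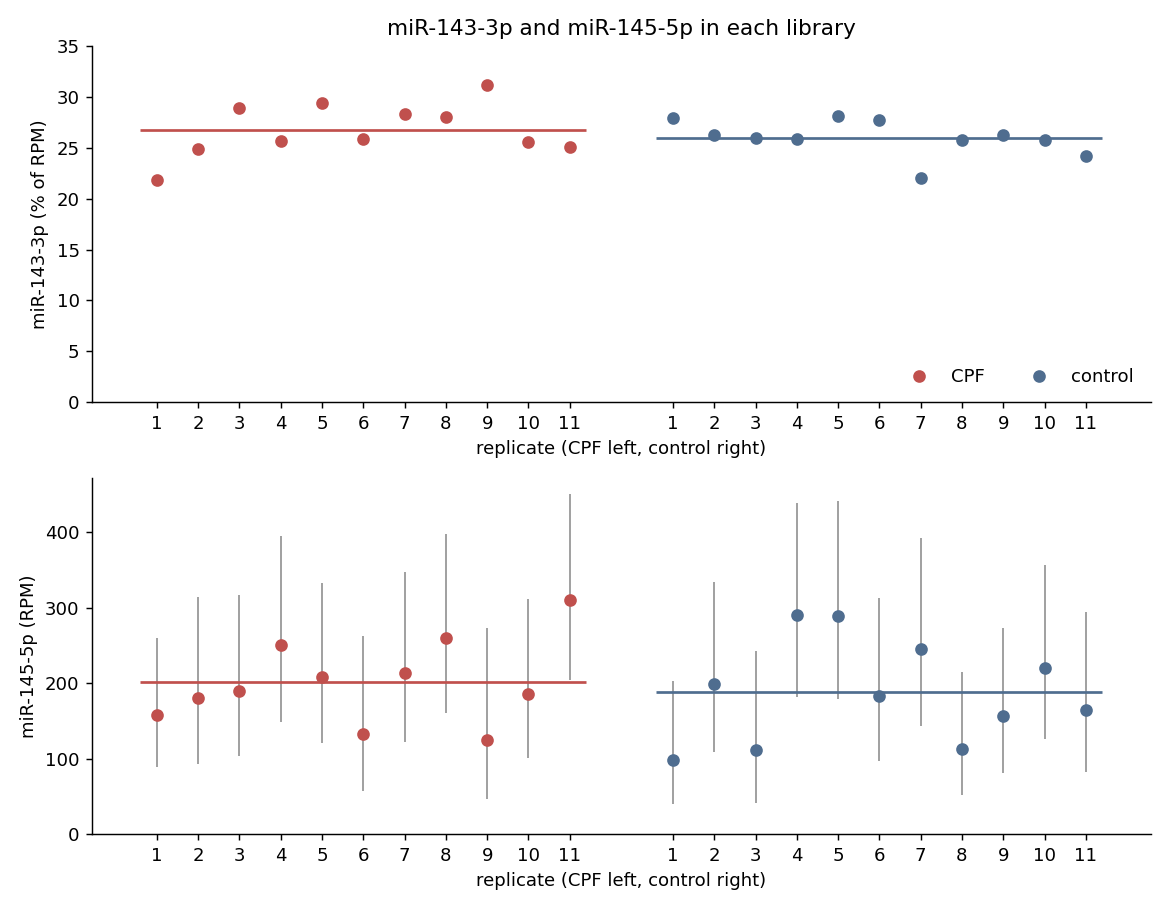
Level of miR-143-3p (upper panel, percent of RPM) and miR-145-5p (lower panel, RPM) in each CPF and control library, with group means as lines and, for miR-145-5p, exact 95% binomial intervals as grey bars. miR-143-3p stays between 21.9 and 31.2% in all 22 libraries, while the points of miR-145-5p spread from 98.6 to 310 RPM with wide counting intervals.

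The name next in level was miR-27b-3p in every library, a miRNA of vessel and other cells from the miR-23b, miR-27b and miR-24 cluster. It averaged 156103 ± 13819 RPM in CPF and 153663 ± 11013 RPM in control libraries (SD, n = 11 each). miR-143-3p exceeded it 1.42- to 2.17-fold in CPF libraries and 1.48- to 1.99-fold in control libraries, so the order of these top names never changed. Together they filled 35.6 to 47.3% of RPM in CPF libraries and 35.4 to 44.6% in control libraries. Below them, by the mean over all libraries, stood miR-30d-5p at 71539 RPM, miR-29a-3p at 54003 RPM and the oligodendrocyte-rich miR-338-3p at 53109 RPM.

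miR-145-5p, the arm of miR-145 usually taken as its working strand, was present in all 22 libraries but at rank 127 by its mean. In CPF libraries it ran from 125 to 310 RPM (median 189 RPM), and in control libraries from 98.6 to 290 RPM (median 183 RPM). These values stood for 6 to 27 reads in CPF libraries and 6 to 22 reads in control libraries. The groups overlapped, with only CPF replicate 11 (310 RPM) above the highest control library. That library had 27 reads (exact 95% interval 204 to 451 RPM), and control replicate 1, the lowest, had 7 reads (exact 95% interval 39.6 to 203 RPM). Intervals and the floor cover counting error only, since the reads carry no molecular identifiers. Its neighbours in the order of means, miR-484 (209 ± 66.4 RPM) and miR-28-5p (193 ± 78.5 RPM), did not differ from miR-145-5p (195 ± 60.9 RPM) beyond their spread over the 22 libraries (SD).

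miR-145-3p, the passenger arm, was at 0 in 20 of 22 libraries. The others were CPF replicate 4 at 13.9 RPM and control replicate 5 at 13.8 RPM, a single read each. Over all libraries miR-145-5p had 316 reads and miR-145-3p 2 reads. The 3p arm thus made up 0.629% of the miR-145 reads, with an exact 95% interval of 0.0763 to 2.25%. Levels of miR-145-3p were under the floor in every library, so no difference between CPF and control was detectable at this depth.

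**Figure D2:**
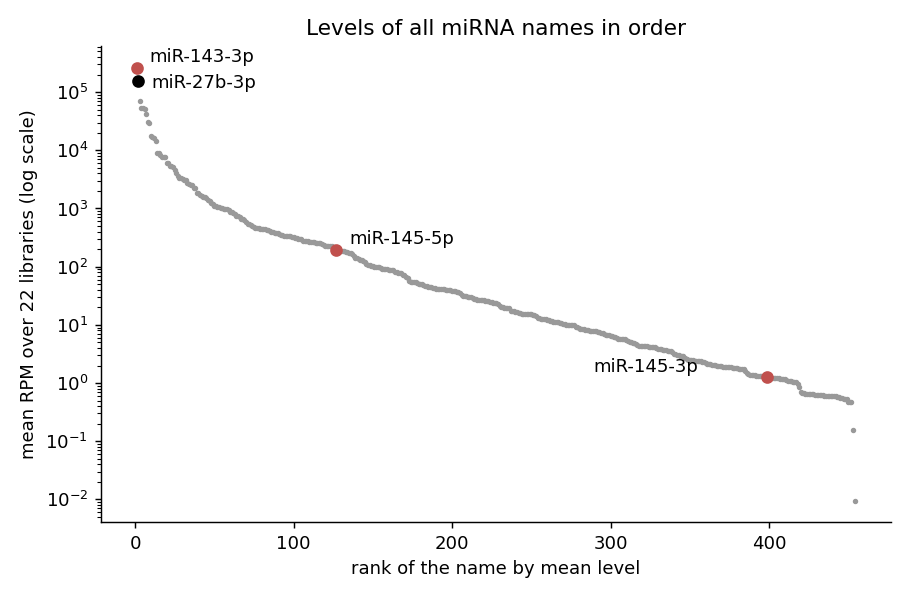
Mean RPM over the 22 libraries (log scale) against the rank of each miRNA name, with the members in red and miR-27b-3p in black. miR-143-3p stands first, miR-145-5p at rank 127 and miR-145-3p at rank 399.

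The distance between the hairpins of the shared transcript was large. Within a library, miR-143-3p exceeded miR-145-5p 807- to 2485-fold in CPF libraries (median 1379-fold) and 893- to 2828-fold in control libraries (median 1467-fold). On the log2 scale this ratio averaged 10.42 ± 0.44 in CPF and 10.52 ± 0.57 in control libraries (SD, n = 11 each). The difference of -0.09 was within the spread between libraries (two-sided permutation test, p = 0.666, adjusted p = 0.748 over 3 single-value comparisons). Since scaling cancels within a library, this ratio does not depend on the total used for RPM. It is a ratio of reads, as are all comparisons between names here. Whether different sequences were captured equally was not tested.

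Other neighbouring hairpins gave a scale for that ratio. 13 pairs of adjacent hairpins, on the same strand and within 10000 bases of each other in RefSeq, had products that averaged at least 62.7 RPM each. Each hairpin was represented by its most abundant product that comes from a single locus. This comparison was chosen after the values were seen and carries no test. The ratio of mean RPM between miR-143-3p and miR-145-5p was 1355, the highest of the 13, whose median was 5.64. Pairs with a product under 62.7 RPM were left out, and larger ratios may lie among them. The rank and the median therefore hold only for pairs above that level. The next were miR-127-3p over miR-433-3p (194), from the imprinted Dlk1-Dio3 region, and miR-27b-3p over miR-23b-3p (176). At the other end, miR-434-5p over miR-136-3p stood at 1.12. Some hairpins appear in several pairs, so the pairs are not independent.

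**Figure D3:**
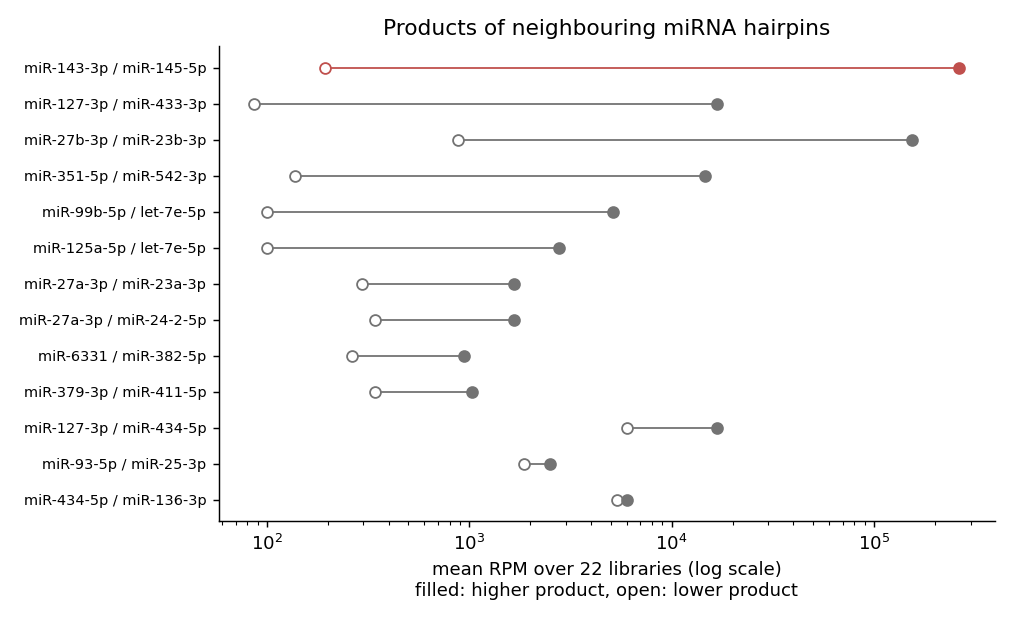
Mean RPM over the 22 libraries (log scale) of the products of 13 pairs of neighbouring miRNA hairpins, with the higher product filled, the lower one open and miR-143-3p with miR-145-5p in red. The line for miR-143-3p and miR-145-5p is the longest, at a ratio of 1355 against a median of 5.64.

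The members differed in how far their spread between libraries exceeded counting error. miR-143-3p averaged 19690 reads in CPF and 18421 reads in control libraries. Its coefficient of variation was 9.78% in CPF and 6.75% in control libraries, where counting alone would give 0.713% and 0.737%. The spread of miR-143-3p was therefore 13.7 and 9.17 times the counting error. miR-145-5p, with 15.3 reads on average in CPF and 13.5 in control libraries, varied by 27.7% and 36.0%, and counting alone would give 25.6% and 27.3%. Its spread was 1.08 and 1.32 times the counting error, so differences between single libraries in miR-145-5p were close to what the depth can resolve. Among the 55 names averaging at least 1000 RPM, miR-143-3p had the fifth lowest spread within groups, at 8.41%, where the median of those names was 14.0%. miR-30d-5p was the steadiest at 6.41%. These spreads were taken on RPM, where the spread of a name that fills much of the total is damped by construction.

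The main comparison asked whether 21 days of CPF changed these miRNAs. miR-143-3p averaged 267848 ± 26205 RPM in CPF and 259666 ± 17535 RPM in control libraries (SD, n = 11 each). On log2(RPM + 1) the fold change was 0.04 (SE 0.0577), or 1.03-fold with a 95% interval of 0.948 to 1.12 (limma, adjusted p = 0.954). miR-145-5p averaged 201 ± 55.7 RPM in CPF and 188 ± 67.8 RPM in control libraries. Its log2 fold change was 0.14 (SE 0.206), or 1.10-fold with a 95% interval of 0.819 to 1.47 (limma, adjusted p = 0.954). Both differences were smaller than the spread between libraries. 0 of the 2 members tested passed, where 2 of 273 names tested did (0.733%, with 18 at an unadjusted p under 0.05), and miR-145-3p was too low to be tested. edgeR and DESeq2 on recovered reads called neither miR-143-3p nor miR-145-5p. The names that passed were miR-132-3p and miR-212-5p, neuronal miRNAs of a shared locus, at log2 fold changes of 0.87 and 0.43.

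**Figure D4:**
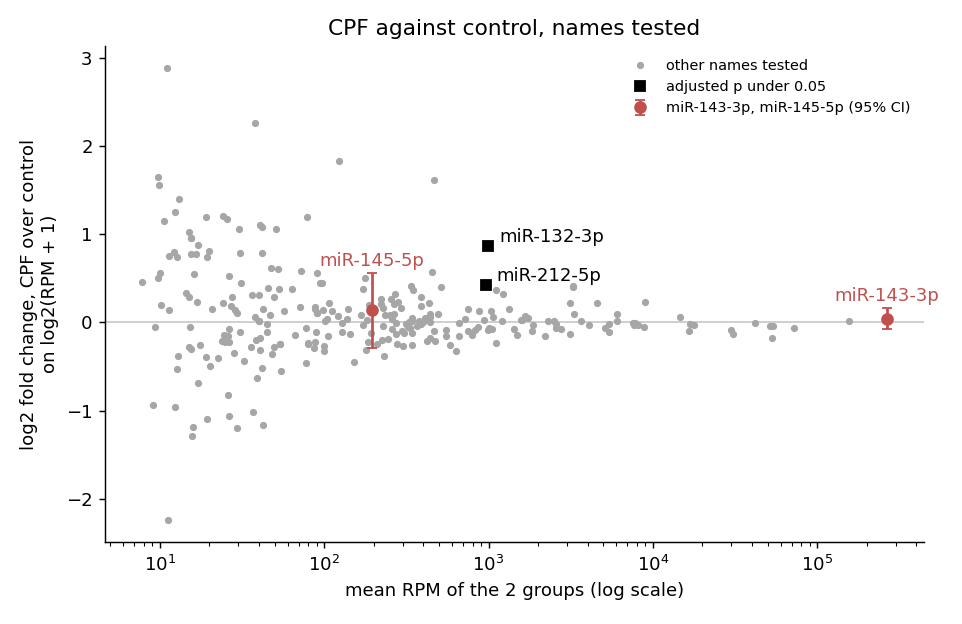
Log2 fold change of CPF over control on log2(RPM + 1) against mean RPM (log scale) for the 273 names tested, with miR-143-3p and miR-145-5p in red with 95% intervals and the names past the threshold as black squares. Both red intervals cross 0, at 0.04 for miR-143-3p and 0.14 for miR-145-5p.

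The interval of miR-143-3p was narrow and that of miR-145-5p wide, in the order of their reads. The direction of miR-143-3p changed without the libraries high in choroid plexus miRNAs. These, CPF replicates 7, 8 and 9, held 283475, 280117 and 311596 RPM of it. Without them the log2 fold change of miR-143-3p was -0.01 (95% interval -0.13 to 0.12), and that of miR-145-5p 0.14. CPF replicates 3 and 5 held 288820 and 293708 RPM, above replicates 7 and 8, with 635 and 1004 RPM of choroid plexus and ependyma names. The members together took 26.8 ± 2.62% of RPM in CPF and 26.0 ± 1.75% in control libraries (difference 0.819 percentage points, two-sided permutation test, p = 0.402, adjusted p = 0.748 over the 3 single-value comparisons). The log2 ratio of miR-143-3p over miR-27b-3p was 0.78 ± 0.17 in CPF and 0.76 ± 0.12 in control libraries (permutation p = 0.748, adjusted p = 0.748).

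The labels carry library codes whose first digit splits each group, 3 and 6 in CPF and 1 and 4 in control libraries, without saying what the digit stands for. miR-143-3p averaged 260862 ± 27606 RPM at digit 3 (n = 6) and 276232 ± 24559 RPM at digit 6 (n = 5), against 268234 ± 10947 RPM at digit 1 (n = 5) and 252527 ± 19609 RPM at digit 4 (n = 6). Depending on which digits were set against each other, its log2 fold change was -0.05 (3 against 1), 0.13 (6 against 4), 0.04 (3 against 4) and 0.04 (6 against 1). None of these passed with limma (lowest adjusted p = 0.745). For miR-145-5p the same 4 contrasts gave 0.03, 0.26, 0.06 and 0.22, and none passed (lowest adjusted p = 0.836). Whether the contrasts differ from each other was not tested.

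Because miR-143-3p filled 21.9 to 31.2% of each library, its level moves the RPM of every other name. The names other than the members took 68.8% of RPM in CPF replicate 9, the lowest share, and 78.1% in CPF replicate 1, the highest. Leaving the members out of the total raised the RPM of all other names 1.28-fold in CPF replicate 1 and 1.45-fold in CPF replicate 9, a 1.13-fold difference between these libraries. With that total, 2 names passed between CPF and control, and both were the names that passed with RPM as deposited.

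The endothelial, mural, muscle and blood lists were far below miR-143-3p. The endothelial list summed to 1613 to 2252 RPM in CPF and 1632 to 2323 RPM in control libraries. Its main name, miR-126a-3p, which supports signalling by vascular endothelial growth factor, averaged 1600 ± 181 RPM in CPF and 1575 ± 186 RPM in control libraries, or 0.602% of the level of miR-143-3p. The other arm, miR-126a-5p, averaged 419 ± 82.7 RPM in CPF and 403 ± 71.9 RPM in control libraries. The mural and mesenchymal list held miRNAs other than the members, taken here to stand for pericytes, smooth muscle and fibroblasts. It summed to 398 to 1116 RPM in CPF and 433 to 921 RPM in control libraries. Its main names were miR-10a-5p (381 ± 193 RPM in CPF, 296 ± 190 RPM in control) and miR-221-3p (265 ± 83.5 RPM in CPF, 253 ± 85.5 RPM in control). Among the members and this list, miR-143-3p thus stood far above the rest. The mean of miR-145-5p lay below those of miR-10a-5p and miR-221-3p. Whether the names of the list are particular to pericytes, smooth muscle or fibroblasts was not tested.

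The list of cardiac and skeletal muscle was lower still, at 61.2 to 184 RPM in CPF and 26.4 to 279 RPM in control libraries. miR-208a-5p held most of it (95.4 ± 44.1 RPM in CPF, 107.8 ± 69.2 RPM in control), and miR-133a-3p was under the floor (4.91 ± 6.84 RPM in CPF, 17.5 ± 13.4 RPM in control). The blood cell list summed to 69.5 to 199 RPM in CPF and 88.2 to 216 RPM in control libraries. It was led by the leukocyte miRNAs miR-142-5p (47.8 ± 19.5 RPM in CPF, 52.0 ± 30.0 RPM in control) and miR-150-5p (29.5 ± 19.8 RPM in CPF, 32.0 ± 23.6 RPM in control).

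The neuron and oligodendrocyte lists were higher. The neuron list summed to 57186 to 80179 RPM in CPF and 55524 to 80432 RPM in control libraries, led by miR-9a-5p (50852 ± 7160 RPM in CPF, 52435 ± 7700 RPM in control), a regulator of neural progenitors, and miR-128 (7558 ± 1626 RPM in CPF, 7674 ± 1352 RPM in control). The oligodendrocyte list, led by miR-338-3p (50330 ± 13800 RPM in CPF, 55889 ± 11908 RPM in control) and miR-338-5p (2101 ± 453 RPM in CPF, 2313 ± 350 RPM in control), summed to 33453 to 81828 RPM in CPF and 47329 to 90059 RPM in control libraries. Of the 8 lists, that of the miR-23, miR-27 and miR-24 clusters was the closest in level to the members. It summed to 150401 to 193987 RPM in CPF and 157362 to 188230 RPM in control libraries, most of it miR-27b-3p. Next in that list was miR-24, at 7733 ± 595 RPM in CPF and 7783 ± 763 RPM in control libraries.

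Between CPF and control, 0 of the 50 tested names in these 8 lists passed with limma, where 0.733% of all names did. Of these 50, 8 had an unadjusted p under 0.05, beside 18 of all 273 names. Of those 8, 4 were choroid plexus and ependyma names. In these lists edgeR called miR-1298, and DESeq2 called miR-1298 and miR-448-3p, both choroid plexus names. Over all names edgeR called 4 of 140 tested and DESeq2 5 of 418. Neither was run without CPF replicates 7, 8 and 9, which held 869, 2425 and 3929 RPM of miR-1298. The other CPF libraries held at most 292 RPM of it. The median log2 fold change was 0.01 for the 4 tested mural names, 0.04 for the 2 endothelial names and 0.02 for the 9 names of the miR-23, miR-27 and miR-24 clusters, beside 0.02 for all 273 names. It was 0.01 for the 18 neuron names, -0.12 for the 4 oligodendrocyte names, -0.19 for the 4 blood names and -1.11 for the 2 muscle names. The muscle names were miR-208a-5p at 0.01 and miR-133a-3p, under the floor, at -2.24. The median stood at 1.61 for the 7 tested choroid plexus and ependyma names, all above 0 without passing with limma. Without CPF replicates 7, 8 and 9 that median was 0.65, with 5 of the 7 above 0, and the mural median was 0.32, beside 0.04 for all names. Again 0 of the 50 names passed with limma, and 1 had an unadjusted p under 0.05, beside 12 of all 273 names. The sum of the 9 measured names of this list ran from 635 to 8005 RPM in CPF libraries (median 1156 RPM) and from 580 to 1097 RPM in control libraries (median 817 RPM), led by miR-1298 (795 ± 1243 RPM in CPF, 133 ± 77.6 RPM in control) and miR-34c-5p (579 ± 471 RPM in CPF, 332 ± 104.7 RPM in control). CPF replicates 7, 8 and 9 held 2285, 4973 and 8005 RPM of it, and the other CPF libraries at most 1232 RPM.

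Across libraries, no relation between miR-145-5p and miR-143-3p was detectable. On values scaled by median ratios and centred within each group, Pearson's r between them was -0.13 (permutation p = 0.542) and Spearman's rho -0.03 (permutation p = 0.895) over 22 libraries. Without the 2 libraries farthest from the median of miR-143-3p, CPF replicates 1 and 9, r was -0.08. Within the groups r was -0.04 in CPF and -0.26 in control libraries. At 6 to 27 reads of miR-145-5p per library, most of its spread was of the size of counting error, which limits what r can show.

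Of 263 names compared with miR-143-3p in this way, 0 passed after adjustment, by r or by rho (permutation tests), and 32 had an unadjusted p under 0.05 for r. The name least like it was miR-9a-3p, the other arm of the neural miR-9a (r = -0.76, rho = -0.63, permutation p = 0.0003, adjusted p = 0.0789). Its level was lowest, at 1902 RPM, in CPF replicate 9, where miR-143-3p was highest, and in CPF libraries it was highest, at 3748 RPM, in CPF replicate 1, where miR-143-3p was lowest. Without these 2 libraries r was -0.51, without CPF replicates 7, 8 and 9 it was also -0.51, and within the groups it was -0.91 in CPF and -0.36 in control libraries. The next of negative sign among names averaging at least 100 RPM were the neuronal miR-153-3p (r = -0.54, rho = -0.46, permutation adjusted p = 0.448) and miR-879-5p (r = -0.50, rho = -0.56, permutation adjusted p = 0.31). Without CPF replicates 1 and 9 these r were -0.33 and -0.47, and without CPF replicates 7, 8 and 9 they were -0.53 and -0.50. miR-153-3p stood at 14435 RPM in CPF replicate 1, against at most 693 RPM in control libraries.

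The names most like miR-143-3p were miR-3557-5p (r = 0.59, rho = 0.52, permutation adjusted p = 0.31), miR-351-5p, a rodent miRNA of the miR-322 and miR-503 cluster (r = 0.59, rho = 0.44, adjusted p = 0.31), and the choroid plexus miRNA miR-1298 (r = 0.56, rho = 0.39, adjusted p = 0.409). Without CPF replicates 1 and 9 these r were 0.45, 0.38 and 0.33. Without CPF replicates 7, 8 and 9 they were 0.51, 0.31 and -0.06, so the relation of miR-1298 rested on those libraries. miR-27b-3p, next in level to miR-143-3p, had r = 0.46 (permutation adjusted p = 0.41). Its r was 0.23 without CPF replicates 1 and 9, 0.11 without CPF replicates 7, 8 and 9, and 0.24 on RPM as deposited.

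**Figure D5:**
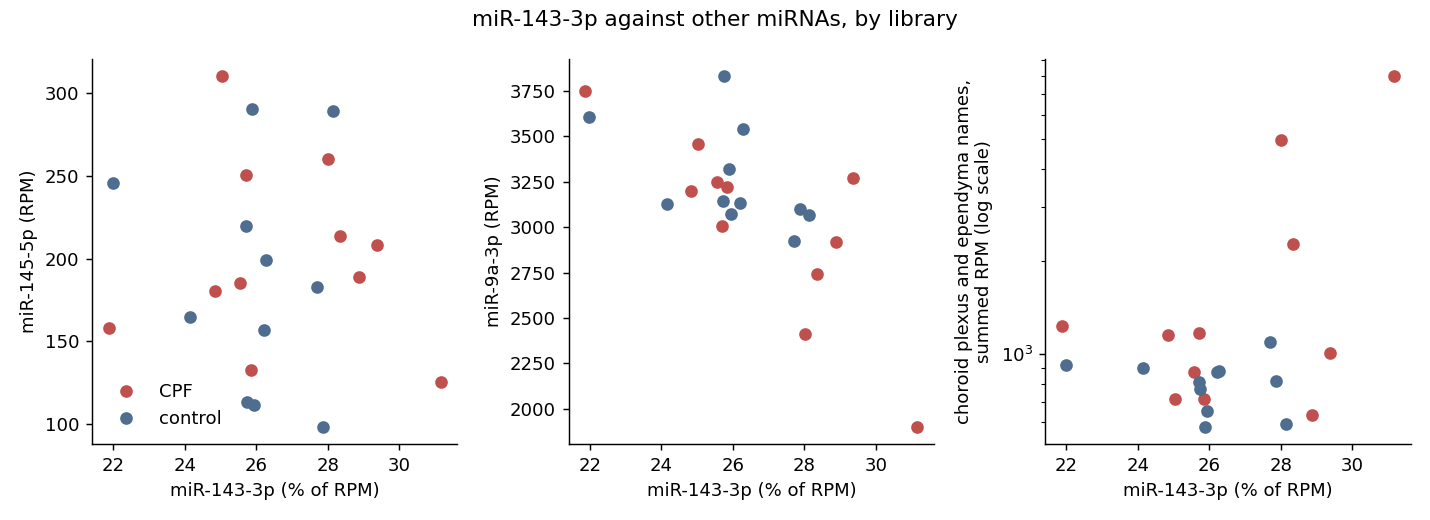
Level of miR-145-5p (RPM, left), miR-9a-3p (RPM, middle) and the summed choroid plexus and ependyma names (RPM, log scale, right) against miR-143-3p (percent of RPM) in the 22 libraries, CPF in red and control in blue. The left panel shows no trend (r = -0.13 on scaled values), the middle panel falls toward CPF replicate 9 at 1902 RPM, and in the right panel CPF replicates 7, 8 and 9 stand above the rest.

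6 measures of each library were set beside the share of miR-143-3p, centred within groups. The share had r = -0.36 with the recovered reads of the library (rho = -0.03, permutation p = 0.147 for r, adjusted p = 0.39) and 0.22 without CPF replicates 1 and 9, so the first value rested on those libraries. With the log2 sum of the choroid plexus list r was 0.38 (rho = 0.15, permutation p = 0.153, adjusted p = 0.39), and -0.36 without CPF replicates 7, 8 and 9. With the mural list r was 0.00154 (permutation p = 0.995) over all libraries, at -0.38 in CPF and 0.68 in control libraries. With the endothelial list r was -0.24 (permutation p = 0.304), at -0.54 in CPF and 0.28 in control libraries, and -0.0031 without CPF replicates 1 and 9. With the number of names above 0 RPM it was -0.31 (permutation p = 0.195) and 0.24 without CPF replicates 1 and 9, and with the RPM of miR-145-5p it was -0.11 (permutation p = 0.626). None passed after adjustment over the 6 measures.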

How the data were processed

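The deposited tables hold RPM per miRNA name, per the file headers. Each library sums to 1000000 or just under, so the authors' RPM are relative to the reads in the table. CASAVA 1.8.2, Bowtie, cutadapt 1.2, the build rn4 and Partek 6.6 are listed in the submitters' processing notes, without roles. How multimapped reads and strand were treated is not given in the sources used here, so names that share reads with near copies or antisense hairpins are uncertain. 13 names stand on several rows and were summed. Control replicate 2 ends after 448 of 484 rows, and the rest was treated as missing.

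A read was taken as the commonest low value, and 92.8 to 98.0% of low values per library (up to 20 reads) were whole within 0.1 read. Chi-square over degrees of freedom was at least 2.42 for every pair of libraries, so none was counted as a duplicate. Under R 4.3.3, limma-trend (version 3.58.1) tested log2(RPM + 1) of 273 names that reached 10 RPM in 11 or more libraries, two-sided, at a Benjamini-Hochberg adjusted p under 0.05. edgeR 4.0.16 (quasi-likelihood) and DESeq2 1.42.0 were run on the recovered reads, rounded to whole numbers, as alternatives, and called 4 and 5 names. Only limma on values scaled by median ratios was tested on simulated data, and the other fits were not. Permutation tests (scipy 1.17.1 or numpy) used 100000 resamples, within groups for correlations, and were exact where fewer arrangements exist. miRNA sequences were matched by name for 410 of 468 names.

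The names described were the members, the 4 next in level, the 2 most abundant of each list, those past the threshold, and the 3 most and 3 least like miR-143-3p among names averaging at least 100 RPM. Members and lists were chosen with earlier results of these data known. The comparison of neighbouring hairpins was added after the values were seen.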

Additional observations from a re-analysis of the deposited data

How the results depend on the processing

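miR-143-3p passed under none of the alternatives run. Its log2 fold change ranged over 0.02 to 0.07 with single libraries left out. It turned negative without CPF replicates 7, 8 and 9 (-0.0065) and with code digit 3 against 1 (-0.046). The members' share of RPM differed by 0.383 to 1.31 percentage points with single libraries left out, by -0.0759 without CPF replicates 7, 8 and 9 and by -0.738 with digit 3 against 1 (exact permutation p = 0.615). It differed by 2.37 with 6 against 4 (exact permutation p = 0.126), by 0.834 with 3 against 4 and by 0.802 with 6 against 1. Digit 6 holds CPF replicates 7, 8 and 9, and the contrasts with digit 6 were not run without them. The cause was not tested. miR-145-5p kept its sign in all settings, at 0.05 to 0.21 with single libraries left out and 0.03 to 0.26 otherwise, and never passed. The count of names called, 2 with limma, was 4 with edgeR's TMM, 4 with its RLE scaling, 4 with edgeR without miR-143-3p in the reads (chosen after seeing the data) and 5 with DESeq2. It was 1 in each of the code digit contrasts, which have fewer samples, and 2 to 3 with single libraries left out. In the digit contrasts the name was miR-212-5p (3 against 1), miR-132-3p (6 against 4 and 6 against 1) or miR-34b-3p (3 against 4). miR-34b-3p, of the choroid plexus and ependyma list, averaged 0.81 reads a library and was not called in the main fit. With the replicate number as a block, 2 names passed and miR-143-3p stood at 0.04 (limma adjusted p = 0.961). Same-numbered libraries did not deviate together (r -0.09 to 0.19, over 0.1 in 2 of 11 pairs), so the number is not taken as a pairing. On RPM as deposited 3 names followed miR-143-3p past the threshold, against 0 on scaled values, all with negative r (miR-30e-5p -0.76, miR-338-3p -0.76 and miR-26a-5p -0.66, named after their values were seen). A share that fills so much of the total moves other RPM against it by construction. In settings chosen after seeing the data, some r with miR-143-3p changed sign. Without CPF replicates 7, 8 and 9, r was -0.059 for miR-1298 and -0.358 for the choroid plexus list. Without CPF replicates 1 and 9, r was 0.22 for the recovered reads and 0.236 for the names above 0 RPM. Depth limits miR-145-5p to 6 to 27 reads a library and leaves miR-145-3p under the floor.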
